A study of Mus musculus with 2 samples.

Results

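Interferon-stimulated genes are the genes that a cell switches on when interferon binds its receptors. Here they were taken as a fixed list of 36 gene symbols and read in single-cell RNA sequencing of splenic dendritic cells (DC) from WT mice and from H2-Aa cit/cit mice, which carry a mutant allele of the alpha chain of MHC-II. Of the 36 symbols, 35 were found among the 32285 measured genes, and Mx1 was not analysed here. The list is a list of names with no threshold on a measured value, but it was drawn up with earlier results of these data known. There was 1 library per genotype, H2-Aa +/+ (called WT) and H2-Aa cit/cit (called cit). Each was made from CD45.2+ CD11c+ spleen cells of 3 naive female mice aged 4 months. The mice of a library were pooled, so the spread between mice could not be measured, no p-value was computed, and every interval below is a 95% interval that covers counting error only. The allele came from an ENU mutagenesis on C57BL/6J and is carried in every cell of the mouse, so a difference in DC is not limited to an effect within DC.

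Type I interferons (IFN-alpha and IFN-beta) act through the receptor Ifnar1 and Ifnar2, and interferon-gamma acts through Ifngr1 and Ifngr2. Type I interferon uses Stat2 and Irf9, which take part in binding an element called ISRE in the promoters of responding genes. Products of these genes bind foreign RNA, block translation or membrane fusion, or feed back on the pathway itself. Splenic DC are known to hold a low level of such transcripts without infection, and plasmacytoid DC (pDC) are the cells best known for releasing type I interferon.

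The WT library held 7814 cells with a median of 5492 UMIs (unique molecule counts), and the cit library held 11525 cells with a median of 5633. H2-Aa, the mutated gene, stood at 5410 CPM (counts per 1000000 UMIs) in the WT library against 66.2 CPM in the cit library, which checks their labels. Cells were sorted into classes by counts of marker genes, among which no member of the list stands. Resting cDC2 (Ffar2, Clec4a4, Esam and others) were 2606 WT and 5142 cit cells, Ccr2+ cDC2 168 and 484, cDC1 (Xcr1, Clec9a) 380 and 456, mature DC (Ccr7, Fscn1) 1846 and 1176, and pDC (Siglech, Ccr9) 95 and 88. Proliferating, monocyte-like and macrophage cells made up the other classes with at least 80 cells in each library, and 2004 WT and 3112 cit cells passed no gate. Each of these 8 classes had some of its own markers among its leading genes. The cells were sorted by those same markers, so this was built in and is no separate check of the classes. The libraries shared 31 cell barcodes, and the median share of ribosomal protein UMIs was 11.2% in WT and 16.5% in cit.

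The promoters of the members show what the list has in common beside its name. RefSeq promoter windows (GRCm38.p6, 250 bases before to 50 bases after the start site) were at hand for 28 of the 36 members. The ISRE core, GAAA and again GAAA with any NN between them, searched on either strand, stood in 16 of these 28 (57.1%) and in 1079 of 27025 genes with a window (3.99%). In the fixed list of other interferon-stimulated genes it stood in 30 of 65 (46.2%), in 11 of 19 interferon ligand genes (57.9%), and in none of the 5 interferon receptor genes with a window. TTCNNNGAA, the core of the interferon-gamma-activated element called GAS, stood in 6 of the 28 members (21.4%), in 10 of the 19 ligand genes (52.6%) and in 9.55% of all genes. Neither motif was thus particular to the list. The 170 bases before the start site follow for 6 members whose values are used below, with the strand of the gene, 5′ to 3′, and the ISRE matches in capitals. They were picked to set genes that were higher in cit over all cells beside Gbp2 and Bst2, whose levels over all cells differed little. Within the 8 classes Gbp2 was itself higher in cit in 7, as were Ifit1, Ifit3 and Ifit3b, and Bst2 was higher in 5.
Isg15, chr4:156200819-156200988, minus strand: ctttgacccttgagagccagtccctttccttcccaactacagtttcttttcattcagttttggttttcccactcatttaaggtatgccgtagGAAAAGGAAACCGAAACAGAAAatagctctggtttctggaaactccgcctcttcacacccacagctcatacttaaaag
Ifit1, chr19:34640719-34640888, plus strand: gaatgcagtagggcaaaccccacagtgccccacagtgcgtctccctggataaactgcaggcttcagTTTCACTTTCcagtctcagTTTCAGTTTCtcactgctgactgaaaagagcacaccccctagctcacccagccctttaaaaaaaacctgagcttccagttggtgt
Ifit3, chr19:34583359-34583528, plus strand: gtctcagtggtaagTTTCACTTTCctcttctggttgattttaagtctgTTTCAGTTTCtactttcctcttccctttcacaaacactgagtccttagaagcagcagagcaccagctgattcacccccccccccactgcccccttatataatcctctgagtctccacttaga
Ifit3b, chr19:34607787-34607956, plus strand: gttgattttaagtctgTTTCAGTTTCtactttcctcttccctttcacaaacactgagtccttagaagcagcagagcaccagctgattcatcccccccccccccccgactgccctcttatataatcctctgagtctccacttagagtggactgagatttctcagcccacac
Gbp2, chr3:142620493-142620662, plus strand: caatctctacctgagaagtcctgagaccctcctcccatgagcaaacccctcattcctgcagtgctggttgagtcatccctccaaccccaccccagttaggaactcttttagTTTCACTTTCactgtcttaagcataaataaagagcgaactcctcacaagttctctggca
Bst2, chr8:71537473-71537642, minus strand: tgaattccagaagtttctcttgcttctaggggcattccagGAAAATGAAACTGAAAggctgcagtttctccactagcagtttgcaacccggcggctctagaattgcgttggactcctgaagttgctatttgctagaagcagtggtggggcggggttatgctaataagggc
The Isg15 window held 3 overlapping matches between 78 and 66 bases before the start site, counted at their first base. Ifit1 and Ifit3 held 2 separate matches each, and Bst2 held 2 overlapping ones. Ifit3b also held 2 separate matches, at -188 and -154 from the start site, and the printed 170 bases hold only the second. A match is a run of letters and was not shown to be bound. Ifit3 and Ifit3b lie close together on chromosome 19, where Ifit2, Ifit3, Ifit3b and Ifit1 follow each other between 34550694 and 34650009. Of the 31-base words in the last 500 bases of the Ifit3 transcript, 24.0% were also found in other genes, with Ifit3b sharing the most. For Oas3 the share was 28.1%. For Irgm1, Isg15, Ifit3b, Irf9, Ifi27l2a, Ifit1 and Trim30a it ran from 10.02% (Irgm1) down to 0.43% (Trim30a). Reads of these genes could be split or lost, and their levels are less certain.

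Summed over the 35 members, the transcripts made up 1461 CPM in WT and 2121 CPM in cit over all cells, a ratio of 1.45 (log2 0.54, interval 0.52 to 0.55). Of the 34 members with at least 5 CPM in either library, 18 were more than 1.5-fold higher in cit and 0 were more than 1.5-fold lower. Among all 10410 genes at that level, 3.62% were over 1.5-fold higher in cit and 8.55% over 1.5-fold lower. The median log2 ratio was 0.67 for the members and 0.01 for all genes. The cell classes differed in their shares between libraries, with mature DC at 23.6% of WT and 10.2% of cit cells, so the same comparison was made within each class.

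Resting cDC2, the most numerous class, carried 1620.5 CPM of member transcripts in WT and 2282 CPM in cit (log2 0.49, interval 0.47 to 0.51). All 34 members tested in this class had a higher level in cit, and for 33 of them the interval lay above 0. The share of all genes with an interval above 0 was not counted, and at this depth small ratios can leave out 0. The median log2 ratio in this class was 0.63 for the members and -0.04 for all genes. Again 18 were past 1.5-fold higher and 0 past 1.5-fold lower, beside 2.52% and 3.81% of 10021 genes. The plot of the ratios sets each member's value over all cells beside its value in resting cDC2. The ratio was present in resting cDC2 with a ribosomal share of at least 10% (log2 0.44) and in those under 10% (log2 0.55). Marker lists of other classes moved in both directions in this class. The 6 plasma cell markers were at 46.2 CPM in WT and 89.4 CPM in cit (Sdc1 at 0 UMIs in cit). The 10 neutrophil markers were at 3.2 and 12.4 CPM (Mmp8 and Elane at 0 in both libraries), and the 5 Ccr2+ cDC2 markers at 114.2 and 169.8 CPM. Lower in cit were the 8 mature DC markers (239.8 and 151.5 CPM) and the 6 pDC markers (57.2 and 35.3 CPM, Klk1 at 0 in WT). The part of these lists in the result was not tested.

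**Figure D1:**
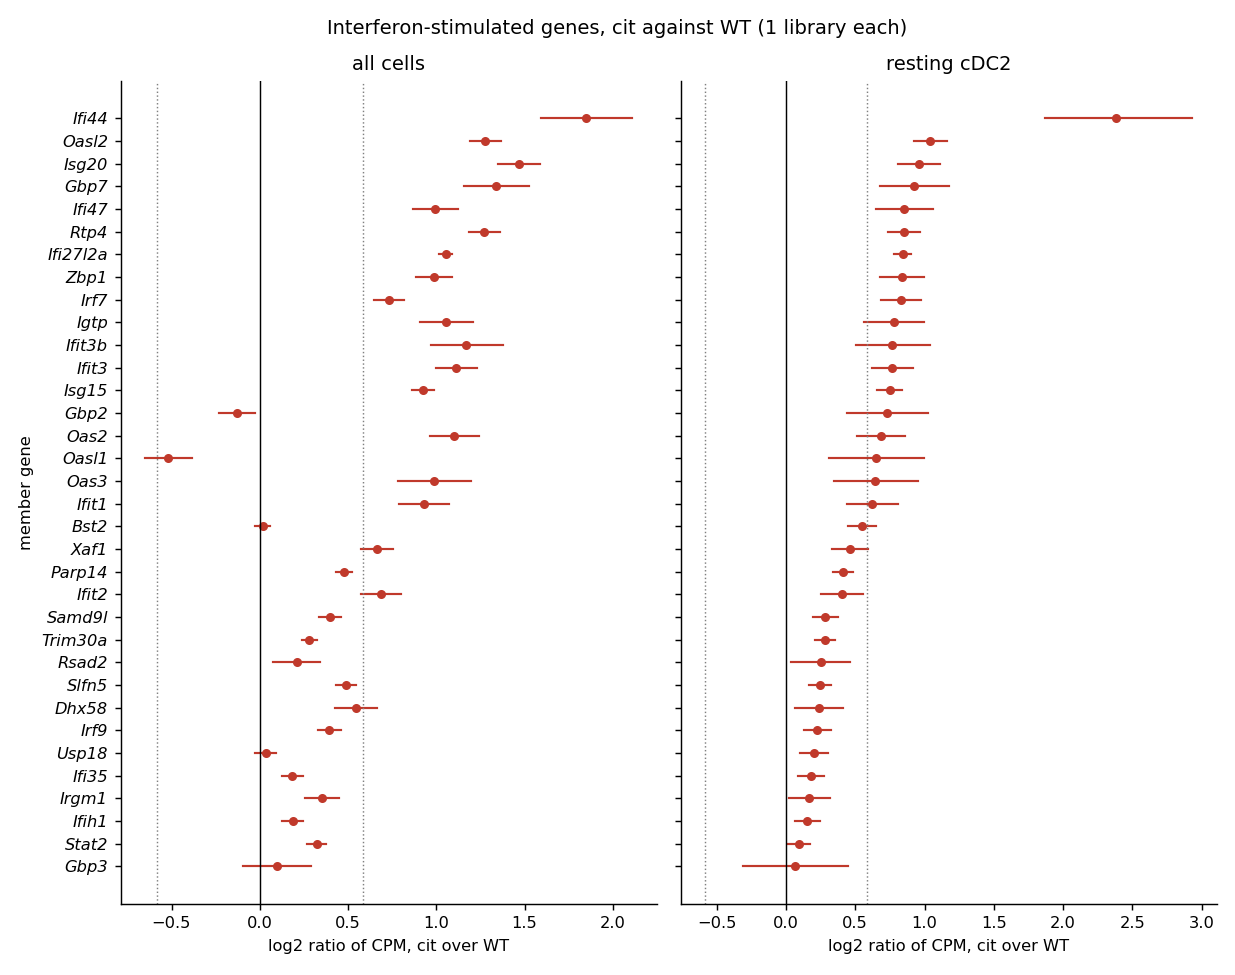
Log2 ratio of the level in cit over WT for each member, over all cells (left) and in resting cDC2 (right), 1 library per genotype. Points are ratios of CPM, lines are 95% counting intervals and dotted lines mark 1.5-fold. In resting cDC2 all points lie to the right of 0, while Oasl1 and Gbp2 lie to the left of it over all cells, a sign that turned for both when cells with a ribosomal share under 10% were left out. That limit left out most WT mature DC, the class with the highest WT level of both genes.

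Among the genes of the response itself, Irf7, the transcription factor that amplifies type I interferon production, measured 29.9 CPM in WT and 53.3 CPM in cit resting cDC2 (log2 0.83, interval 0.69 to 0.98). Irf9 was at 72.1 and 84.2 CPM (log2 0.22) and Stat2 at 109 and 116 CPM (log2 0.09, interval 0.01 to 0.17). Both ISRE-binding subunits thus differed less than Irf7. Usp18, which removes ISG15 from proteins and blocks signalling at Ifnar2, was at 65.6 and 75.4 CPM (log2 0.20).

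Isg15, the ubiquitin-like protein that is attached to other proteins after interferon, measured 75.6 CPM in WT and 127 CPM in cit resting cDC2 (log2 0.75, interval 0.66 to 0.84). Among the IFIT genes, whose products bind viral RNA, Ifit3 was at 27.7 and 47.2 CPM (log2 0.77), Ifit1 at 19.1 and 29.4 CPM (log2 0.62) and Ifit2 at 29.3 and 38.7 CPM (log2 0.40). The IFIT genes were singled out after their values were seen. Ifi27l2a, the member with the most UMIs, was at 174 and 312 CPM (log2 0.84, interval 0.78 to 0.90).

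OAS enzymes sense double-stranded RNA and activate RNase L, and the OASL proteins resemble them. Oasl2 measured 41.6 CPM in WT and 85.5 CPM in cit (log2 1.04, interval 0.92 to 1.16). Oasl1, an inhibitor of Irf7 translation, was at only 5.63 and 8.83 CPM in resting cDC2 (log2 0.65, interval above 0). Isg20, an RNA exonuclease, was at 26.1 and 50.6 CPM (log2 0.96). Rtp4, a chaperone of receptors at the membrane, was at 47.6 and 85.9 CPM (log2 0.85). Ifi44 gave the highest ratio but from few counts, with 34 UMIs in WT and 342 in cit, which is 1.99 and 10.4 CPM (log2 2.38, interval 1.87 to 2.93). It reached the 5 CPM minimum only in cit.

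The interferon-inducible GTPases disrupt the vacuoles of intracellular pathogens. Gbp7 measured 10.1 CPM in WT and 19.1 CPM in cit (log2 0.93, interval 0.68 to 1.18), and Gbp2 at 7.56 and 12.5 CPM (log2 0.73, interval 0.44 to 1.02). For Gbp3, at 5.22 and 5.46 CPM, the interval of the log2 ratio ran from -0.31 to 0.45, so a difference was not detectable at this depth. These 3 genes lie on chromosome 3 between 142530342 and 142638008, and their ratios were not alike.

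Members that were higher by less than 1.5-fold in resting cDC2 included the RNA sensor Ifih1 at 87.4 CPM in WT and 97.2 CPM in cit (log2 0.15, interval 0.06 to 0.24). Parp14, an ADP-ribosyltransferase, was at 133 and 177 CPM (log2 0.41), and Trim30a, a ubiquitin ligase, at 128 and 155 CPM (log2 0.28). Slfn5 was at 103 and 123 CPM (log2 0.25), Samd9l, an inhibitor of translation, at 78.7 and 95.9 CPM (log2 0.28), and Ifi35 at 76.4 and 86.5 CPM (log2 0.18). Bst2 (tetherin), which holds budding virus at the cell surface, was at 62.1 and 90.8 CPM (log2 0.55, interval 0.45 to 0.65).

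The 10 further members tested in resting cDC2 were all higher in cit, with log2 ratios between 0.17 (Irgm1, a GTPase of autophagy) and 0.85 (Ifi47, another GTPase). Of these, 6 were past 1.5-fold, namely Ifi47, Igtp, Zbp1, Ifit3b, Oas2 and Oas3, and Xaf1, Rsad2, Dhx58 and Irgm1 were not. Cmpk2, a nucleotide kinase, stayed under the 5 CPM minimum, at 3.27 CPM in WT and 4.27 CPM in cit over all cells.

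Gbp2, Oasl1 and Bst2 gave another picture over all cells than within classes. Over all cells Gbp2 measured 27.7 CPM in WT and 25.3 CPM in cit (log2 -0.13), although it was higher in cit in resting cDC2 (above) and in mature DC, where it was at 77.0 and 98.2 CPM (log2 0.35, interval 0.21 to 0.49). Of the 8 classes, mature DC held the highest Gbp2 level in each library. Oasl1 over all cells was at 18.3 and 12.8 CPM (log2 -0.52, interval -0.65 to -0.39). Its highest WT level was also in mature DC, at 49.5 CPM, and there it was at 21.3 CPM in cit (log2 -1.21, interval -1.47 to -0.96), while in cDC1 it measured 3.17 CPM in WT and 30.7 CPM in cit. Over all cells the sign of these values turned when cells with a ribosomal share under 10% were left out, to 0.63 for Oasl1 (interval 0.43 to 0.83), which is past 1.5-fold higher, to 0.30 for Gbp2 (0.16 to 0.43) and to -0.26 for Bst2. Mature DC had a median ribosomal share of 8.41% in WT and 10.8% in cit, so this limit left out most WT mature DC. The part of that class in the turned signs was not tested. Bst2 was at 153 and 154 CPM over all cells (log2 0.02), with intervals above 0 in 5 of the 8 classes and below 0 in 2.

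The summed level of the members differed more between classes than between genotypes. Among the 8 classes with at least 80 cells in each library, the WT level was lowest in cDC1 (1076 CPM) and mature DC (1097 CPM), whose levels lay close together, followed by proliferating cells (1137 CPM), macrophages (1481 CPM), resting cDC2 (1620.5 CPM), monocyte-like cells (1844 CPM), Ccr2+ cDC2 (2145 CPM) and pDC (5383 CPM). The ratio of cit to WT was highest of these 8 in proliferating cells (1137 and 1911 CPM, log2 0.75, interval 0.70 to 0.80). Macrophages (log2 0.65), resting cDC2 (0.49), mature DC (0.48), Ccr2+ cDC2 (0.43) and monocyte-like cells (0.39) followed, then cDC1 (0.22, interval 0.17 to 0.27), and pDC lay at -0.10 (interval -0.16 to -0.04). The intervals of proliferating cells, resting cDC2 and cDC1 did not overlap. Cells that passed no gate carried 1458 and 2226 CPM (log2 0.61). Of the classes with fewer cells, NK cells (34 WT and 28 cit cells) carried 875 and 1683 CPM (log2 0.94, interval 0.66 to 1.23) and neutrophil-lineage cells (11 and 17) had a log2 ratio of -0.55 (interval -0.85 to -0.25).

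**Figure D2:**
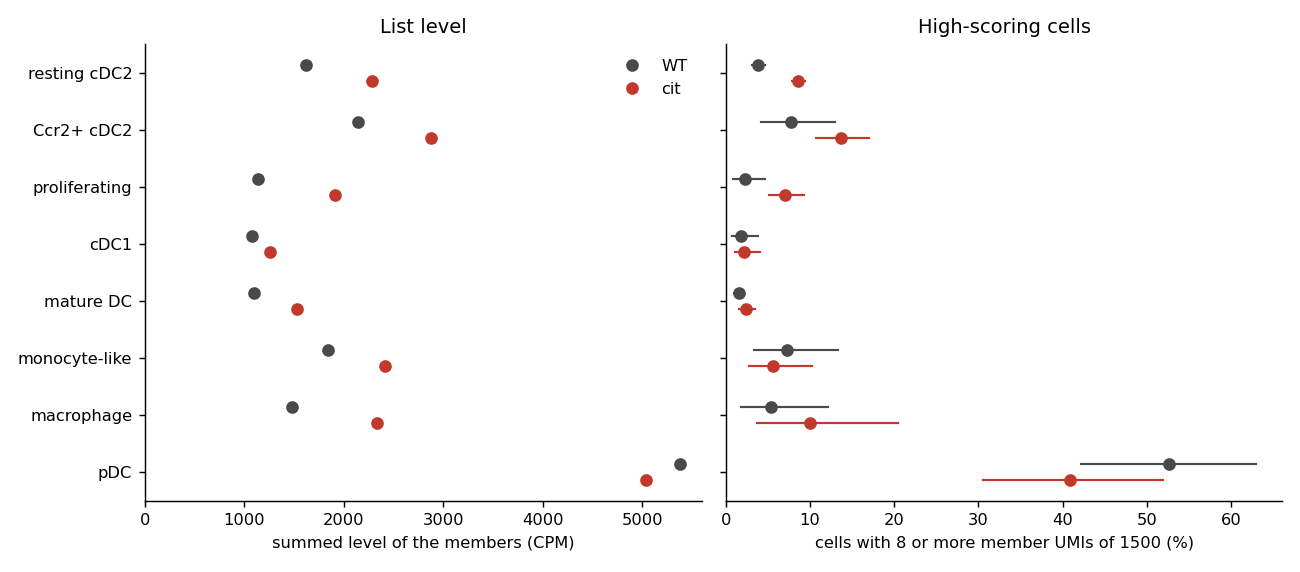
Summed level of the 35 measured members (left, CPM) and share of cells with at least 8 member UMIs after thinning to 1500 UMIs (right, %, lines are 95% Clopper-Pearson intervals) in 8 cell classes, WT in grey and cit in red. The summed level is higher in cit in 7 classes and lower in pDC, which lie far above the other classes in both panels.

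In Ccr2+ cDC2, 16 of 28 members with at least 20 CPM in either library were past 1.5-fold higher and 0 past 1.5-fold lower, beside 3.76% and 2.44% of genes at that level. Gbp7 (20.9 CPM in cit) and Igtp (24.0 CPM in cit) reached 20 CPM there only in cit, and so entered the comparison through the library where they were higher. How many other members did so was not counted. In this class Isg15 measured 40.8 CPM in WT and 107 CPM in cit (log2 1.40, interval 1.04 to 1.77), and Bst2 was at 429 and 342 CPM (log2 -0.33, interval -0.45 to -0.20). Proliferating cells had 17 of 24 members past 1.5-fold higher and 0 lower (2.7% and 2.13% of genes), with Oasl2 at 12.9 and 42.0 CPM. Oasl2 reached the 20 CPM minimum there only in cit, and how many other members did so was not counted. In the same class the 7 cDC1 markers summed to 1032 CPM in WT and 583 CPM in cit, the 8 mature DC markers to 153 and 56.9 CPM (Ccl22 at 0 UMIs in both), the 6 plasma cell markers to 53.3 and 93.0 CPM (Sdc1 at 0 in both) and the 10 neutrophil markers to 2.9 and 12.5 CPM, and their part in the result was not tested. Monocyte-like cells had 13 of 27 higher and 0 lower (10.9% and 10.6% of genes), and macrophages had 16 of 28 higher and 0 lower (13.2% and 13.3% of genes), and in these small classes the share over all genes was larger. The make-up of the monocyte-like class differed between libraries, with its own 7 markers at 3347 CPM in WT and 1533.5 CPM in cit, the 6 proliferating markers at 49.1 and 350.2 CPM and the 6 pDC markers at 25.7 and 61.6 CPM, and the part of this in the result was not tested.

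Mature DC had 8 of 21 members past 1.5-fold higher and 1 lower, which was Oasl1, beside 6.73% and 4.94% of genes. Ifi27l2a measured 51.1 CPM in WT and 137 CPM in cit (log2 1.43, interval 1.29 to 1.56), Rtp4 at 9.37 and 28.0 CPM (log2 1.58) and Irf7 at 8.54 and 20.9 CPM (log2 1.29). Rtp4 and Irf7 reached the 20 CPM minimum only in cit, and so entered the count through the library where they were higher. How many other members did so in mature DC was not counted. Usp18 reached its highest level of the 8 classes in mature DC, 115 CPM in WT and 125 CPM in cit, where the interval of its log2 ratio ran from -0.00 to 0.23. Mature DC with at least 2 cDC1 markers were 164 WT and 39 cit cells, and without them the list stood at 1147 and 1533 CPM (log2 0.42). Other marker lists moved in both directions in mature DC. The 8 resting cDC2 markers summed to 550 CPM in WT and 790 CPM in cit, the 5 Ccr2+ cDC2 markers to 20.3 and 62.8 CPM, the 6 plasma cell markers to 29.0 and 52.7 CPM (Sdc1 at 0 UMIs in both) and the 10 neutrophil markers to 2.5 and 10.3 CPM (Elane at 0 in WT, Mmp8 and Mpo at 0 in cit). The 7 cDC1 markers summed to 224 and 95 CPM and the 7 macrophage markers to 83.9 and 42.8 CPM, and the part of these lists in the result was not tested.

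In cDC1 the members moved in opposite directions. Of 17 members, 6 were past 1.5-fold higher and 1 lower, beside 10.1% and 9.48% of genes. Isg20 and Oasl1 reached the 20 CPM minimum only in cit, and so entered the count through the library where they were higher. How many other members did so in cDC1 was not counted. Isg15 measured 26.0 CPM in WT and 71.2 CPM in cit (log2 1.45, interval 1.15 to 1.76), Isg20 at 7.70 and 27.8 CPM, and Bst2 at 98.0 and 168 CPM (log2 0.78). Against these, Samd9l was at 74.0 and 46.2 CPM (log2 -0.68, interval -0.91 to -0.45), Ifih1 at 32.8 and 22.1 CPM (log2 -0.57), Slfn5 at 105 and 73.3 CPM (log2 -0.51) and Trim30a at 237 and 193 CPM (log2 -0.29), and the intervals of all 4 lay below 0. The list log2 ratio in cDC1 was 0.15 without Bst2 and 0.37 when each cell was given to the class with its highest marker z-score. In cDC1 the plasma cell markers were at 72.7 and 264 CPM (Sdc1 at 0 UMIs in both, Igha at 0 in cit) and the macrophage markers at 26.5 and 83.5 CPM (Cd5l at 0 in both). Other lists were lower in cit. The mature DC markers were at 489 and 50.6 CPM (Nudt17 at 0 in cit) and the pDC markers at 180.5 and 52.7 CPM (Klk1 at 0 in both). The monocyte-like markers were at 180.2 and 91.1 CPM (Fabp4 at 0 in cit). The part of these lists in the result was not tested.

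pDC stood apart from the other classes through Bst2, which measured 3214 CPM in WT and 2777 CPM in cit and gave 3436 of the 5756 member UMIs of WT pDC. Without Bst2 the list was at 2170 and 2262 CPM in pDC (log2 0.06, interval -0.03 to 0.15). No member of 20 was past 1.5-fold higher, beside 6.54% of genes, and 1, Irgm1, was lower, beside 7.8%. Irf7, high in pDC without stimulation, was at 209 and 151 CPM (log2 -0.46, interval -0.81 to -0.13). Ifi27l2a was at 449 and 594 CPM (log2 0.41, interval 0.21 to 0.60), and was the only member of the 20 with an interval above 0. Ifi44, which had the highest ratio in resting cDC2, was at 45.8 and 41.3 CPM in pDC.

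**Figure D3:**
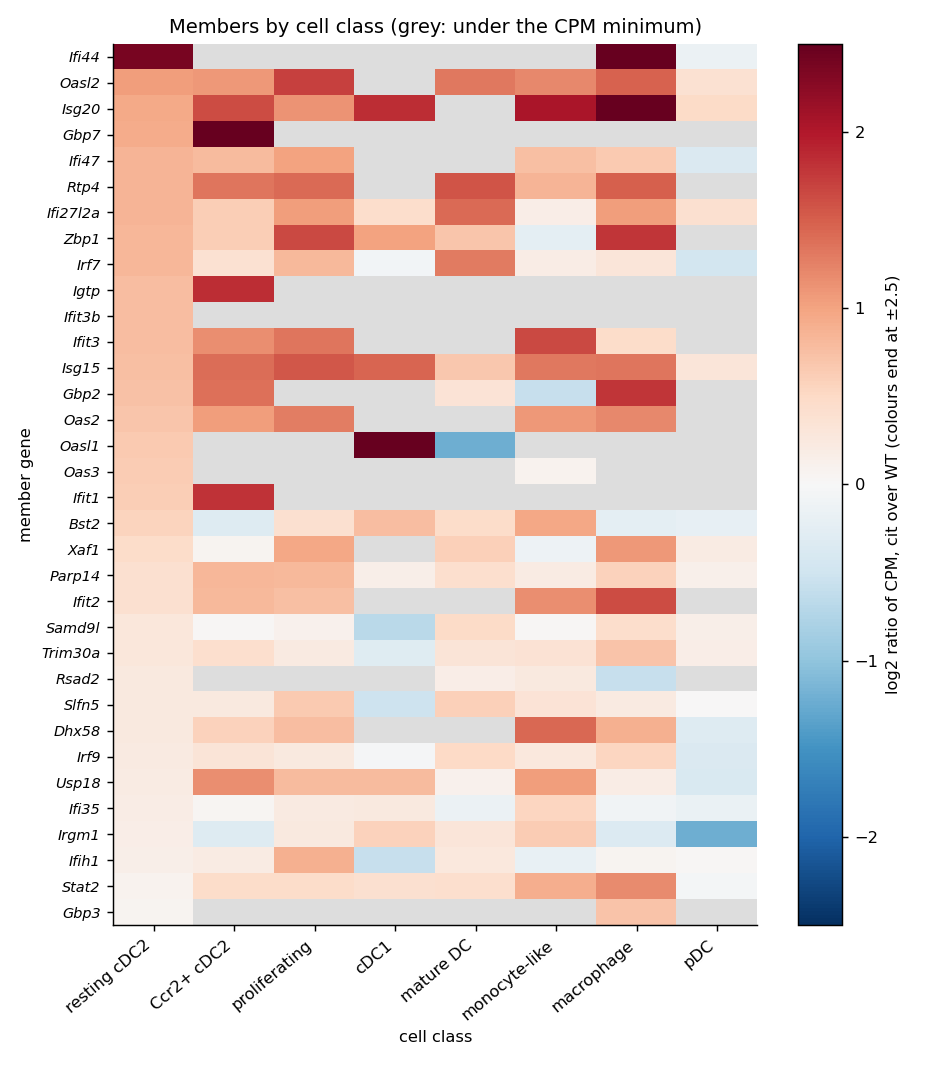
Log2 ratio of the level in cit over WT for each member (rows, in the order of resting cDC2) and cell class (columns), red for higher in cit and blue for lower, with grey where a member was under the CPM minimum in both libraries. The resting cDC2 and proliferating columns are red throughout, while cDC1 and pDC hold most of the blue fields. Ifi44 (macrophage), Isg20 (macrophage), Gbp7 (Ccr2+ cDC2) and Oasl1 (cDC1) go beyond the colour scale. Each of these reached the CPM minimum in that class only in cit.

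Across the 8 classes, 7 members were higher in cit in every class and 16 more in all but 1 class, out of 34 with at least 5 CPM over all cells. Of all genes at that level, 3.34% were higher in cit in every class and 7.26% in all but 1. Isg15, Isg20, Rtp4, Oasl2, Ifi27l2a, Parp14 and Oas2 were the 7. Stat2 was higher in 7 of 8 classes, with pDC at 183 CPM in WT and 178 CPM in cit as the exception. Levels of the least abundant members in single classes rest on few UMIs, for example 14 Oasl1 UMIs in WT cDC1.

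The member UMIs were then counted cell by cell, to see whether the list was spread evenly or held by some cells. Every cell with at least 1500 UMIs was thinned to 1500, which left out 734 WT and 958 cit cells, and a cell was called high-scoring at 8 or more member UMIs, the lowest number that at most 5% of WT cells reached. By this measure 3.84% of WT cells (272 of 7080, interval 3.41 to 4.32) and 7.45% of cit cells (787 of 10567, interval 6.95 to 7.96) were high-scoring, a difference of 3.61 points (Newcombe interval 2.93 to 4.27). Without thinning, 39.2% of WT and 53.5% of cit cells held 8 or more member UMIs.

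In resting cDC2 the share was 3.89% in WT (100 of 2569) and 8.60% in cit (434 of 5044), a difference of 4.71 points (3.61 to 5.77). The median score of a resting cDC2 was 2 UMIs in WT and 3 in cit, and the highest score was 33 and 48. The curves of the score thus lay apart along their whole length in this class and not only at the upper end. Proliferating cells had 2.27% in WT and 7.0% in cit (difference interval 1.80 to 7.27). Ccr2+ cDC2 had 7.78% (13 of 167) and 13.7% (66 of 483), with an interval of 0.09 to 10.5 that barely left out 0. Macrophages had 5.38% and 10.0% (interval -3.86 to 15.2). Monocyte-like cells had a lower share in cit, 7.26% and 5.68% (interval -8.07 to 4.03), although their summed level was higher. In cDC1 the shares were 1.87% and 2.21% (difference 0.34, interval -1.84 to 2.39), and the interval held 0 in every alternative run. In mature DC they were 1.55% and 2.43% (difference 0.89, interval -0.12 to 2.05). The interval also held 0 with a threshold reached by at most 1% of WT cells (-0.50 to 0.74). It did so with z-score class assignment (-0.20 to 2.12) and without likely doublets (-0.42 to 1.90). The same was true without cells over 10% mitochondrial UMIs, without shared barcodes and without mature DC with at least 2 cDC1 markers. There the interval left out 0 without Bst2 (1.41 points, 0.30 to 2.69), with different members counted (1.24, 0.15 to 2.49), after thinning to 3000 UMIs (2.19, 0.997 to 3.58), with a threshold reached by at most 10% of WT cells (2.86, 1.37 to 4.50) and without cells under 10% ribosomal UMIs (1.85, 0.22 to 3.66).

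Among pDC 52.6% of WT and 40.9% of cit cells were high-scoring (difference -11.7, interval -25.5 to 2.70). These shares rested on Bst2, since without it 6.32% of WT and 7.95% of cit pDC passed a threshold set in the same way. High-scoring resting cDC2 had a median of 7632 UMIs and the others 6330 in WT, and 6516 and 6282 in cit, before thinning. Their median ribosomal share was 15.3% against 13.6% in WT and 18.6% against 18.0% in cit.

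**Figure D4:**
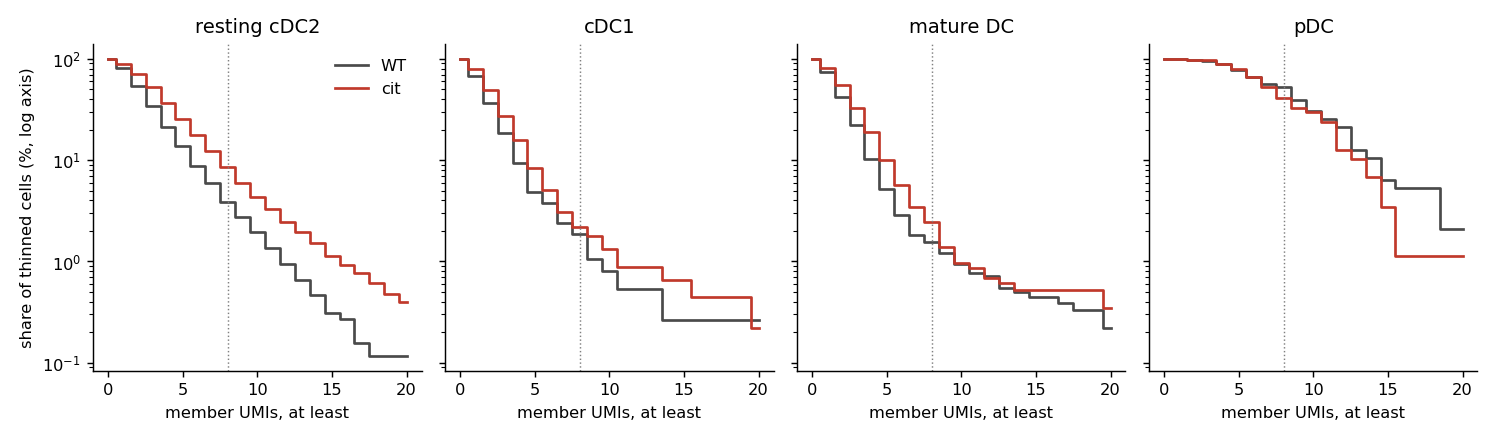
Share of cells (log axis, %) with at least the number of member UMIs on the x axis, of 1500 UMIs per cell, in 4 classes, WT in grey and cit in red, with a dotted line at 8. The cit curve lies above the WT curve throughout in resting cDC2, near it from 8 UMIs in cDC1 and mature DC, and below it from 6 UMIs on in pDC.

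High-scoring cells could owe their score to 1 abundant transcript or to many members at once. Each member was therefore read in resting cDC2 that had 8 or more UMIs of the other members. All 35 members were higher in those cells than in the rest, in WT and in cit. The median log2 ratio was 2.11 in WT, with 26 intervals above 0, and 1.63 in cit, with 34. The share of all genes that were higher in those cells was not counted. Isg15 reached 386 CPM of the thinned UMIs in the high cells and 57.4 CPM in the rest in WT, and 472 and 89.1 CPM in cit. Ifit3 was at 201 and 15.1 CPM in WT and at 203 and 31.7 in cit. Bst2 was at the low end, with log2 ratios of 0.78 (interval -0.20 to 1.62) in WT and 0.66 (interval above 0) in cit.

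**Figure D5:**
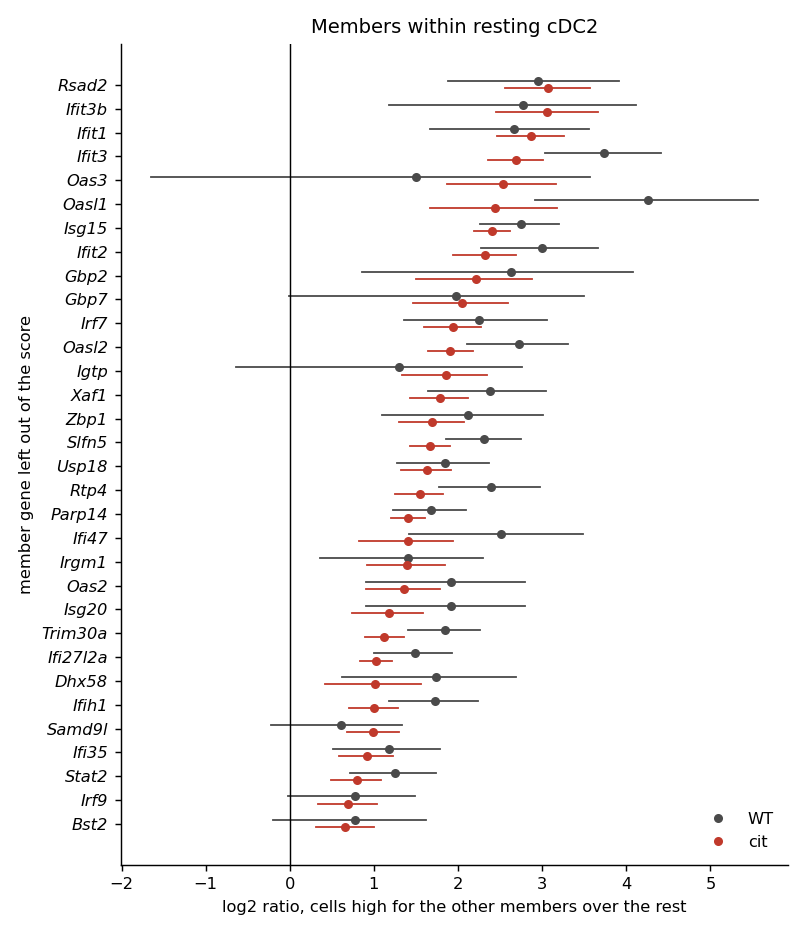
Log2 ratio of each member between resting cDC2 with 8 or more UMIs of the other members and the rest, WT in grey and cit in red, lines are 95% counting intervals, for members with at least 20 UMIs in WT. Every point lies above 0, with Rsad2 and the IFIT genes at the upper and Bst2 and Irf9 at the lower end of the cit values.

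The same cells were high in interferon-stimulated genes outside the list. Of the other interferon-stimulated genes with at least 20 thinned UMIs, 60 of 63 in WT and 72 of 73 in cit were higher in high-scoring resting cDC2 (median log2 1.26 and 1.06). The chemokine Cxcl9, which draws activated T cells, was at 120 CPM of the thinned UMIs in the high cells and 10.5 CPM in the rest in WT, and at 76.8 and 10.7 CPM in cit. Ifnar1, by contrast, was at 66.7 and 65.3 CPM in WT and at 53.8 and 67.0 in cit (log2 -0.32, interval -0.86 to 0.18). The receptors had median log2 ratios of 0.18 in WT and -0.08 in cit, with 4 of 5 genes higher in WT and 2 of 5 in cit. Of the signalling genes 8 of 13 in WT and 11 of 14 in cit were higher. Of the nucleic acid sensing genes 6 of 9 and 8 of 10 were. These lists share some genes with the other interferon-stimulated genes, and no share over all genes was counted beside any of these counts. Since the mice were pooled, how the high-scoring cells were divided over the 3 mice of each library was not tested.

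The rest of the pathway was read from lists chosen by function. Of 20 interferon ligand genes, 18 had 0 UMIs in both libraries, including Ifnb1 and all Ifna genes of the list. A count of 0 allows up to 3 UMIs in a library. The others were Ifnk, with 21 UMIs in WT and 41 in cit, and Ifng, with 13 and 2. In pDC no ligand had a UMI in WT, and 1 Ifnk UMI was found in cit.

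Transcripts of the receptors were present and differed little. In resting cDC2 Ifnar1 measured 66.3 CPM in WT and 63.2 CPM in cit (log2 -0.07, interval -0.17 to 0.04), Ifnar2 at 264 and 255 CPM (log2 -0.05), Ifngr1 at 425 and 431 CPM (log2 0.02, interval -0.02 to 0.06) and Ifngr2 at 154 and 149 CPM (log2 -0.05). None of 5 receptor genes was past 1.5-fold in this class, in either direction, beside 2.52% of all genes higher and 3.81% lower. Over all cells 1 of 6 was, the interferon-lambda receptor Ifnlr1, at 5.96 and 2.53 CPM (log2 -1.23), and within resting cDC2 it was at 1.23 and 0.73 CPM, under the 5 CPM minimum. Among 13 signalling genes none was past 1.5-fold in resting cDC2, and over all cells Tyk2, a kinase bound to Ifnar1, was lower (99.3 and 64.8 CPM, log2 -0.62). Of all genes over all cells, 3.62% were past 1.5-fold higher and 8.55% lower. Counts from lists this short could not be told apart from these shares.

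Of 10 genes of nucleic acid sensing tested, 1 was past 1.5-fold higher in resting cDC2, the adaptor Ticam1 (8.2 CPM in WT, 13.4 CPM in cit), and 1 over all cells, the adaptor Myd88 (22.4 and 35.6 CPM), with 0 lower in either. Of all genes, 2.52% were higher and 3.81% lower in resting cDC2, and 3.62% and 8.55% over all cells. These counts of 1 from 10 genes could not be told apart from these shares. In mature DC 4 of 9 tested genes were past 1.5-fold higher and 0 lower, beside 6.73% and 4.94% of genes. In cDC1 0 of 8 were higher and 0 lower (10.1% and 9.48% of genes), and in pDC 1 of 11 was higher and 2 lower (6.54% and 7.8%).

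Of 66 other interferon-stimulated genes with at least 5 CPM in resting cDC2, 12 were past 1.5-fold higher and 0 lower, beside 2.52% and 3.81% of all genes, and their median log2 ratio was 0.27 (all genes, -0.04). Of the 12, 10 had at least 20 CPM in either library. Among these were Ly6e, a surface protein that blocks viral fusion, at 250 CPM in WT and 478 CPM in cit (log2 0.94, interval 0.89 to 0.98), and Ifitm3, which blocks viral entry from endosomes, at 678 and 1104 CPM (log2 0.70, interval 0.67 to 0.73). In the PYHIN family, which holds sensors of DNA, Ifi213 (21.6 and 51.1 CPM), Ifi206 (18.5 and 38.4 CPM), Ifi207 (60.0 and 107 CPM) and Ifi203 (76.8 and 120 CPM) were past 1.5-fold higher, as was Ifi204 below 20 CPM. Mndal (112 and 155 CPM) and Ifi209 (87.4 and 98.3 CPM) of that family were not, and Ifi205 and Ifi211 were under 5 CPM. The others with at least 20 CPM were Oas1a (22.5 and 35.5 CPM), Ifit1bl1 (13.8 and 27.2 CPM), Lgals3bp (14.9 and 25.1 CPM) and Lgals9 (15.1 and 23.8 CPM). Ifi206, Ifit1bl1, Lgals3bp and Lgals9 reached 20 CPM only in cit, the library where they were higher.

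Over all cells 21 of 70 were past 1.5-fold higher and 5 lower, beside 3.62% and 8.55% of all genes, so that the number of lower ones was not above the share over all genes. The lower ones were Epsti1 (1981 and 831 CPM), Nlrc5, a regulator of MHC-I genes (247 and 142 CPM), Gbp5, Phf11a and Ube2l6, none of which was past 1.5-fold lower in resting cDC2. Past 1.5-fold higher over all cells but not in resting cDC2, with at least 20 CPM in either library, were Mndal, Irgm2, Ifitm6, Slfn2, Ms4a6b and the chemokines Cxcl9 (51.2 and 97.1 CPM) and Cxcl10 (9.8 and 20.01 CPM). Of these chemokines, Cxcl10 reached 20 CPM only in cit.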

How the data were processed

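The deposited files held raw counts of UMIs per gene and cell, 1 matrix per library, which the authors made from 10x Chromium 3′ libraries with Cell Ranger 5.0.1 against mm10, per the labels. Both libraries were used as deposited, with no cell filter, and every cell had at least 500 UMIs. Members and gene lists were chosen with earlier results of these data known. Cells were gated by the number of different markers of a class with a UMI (3 or 4, set after the matrices were seen), with other lineages taken before resting cDC2, Ccr2+ cDC2 and cDC1. Doublets were not removed, and 78 WT and 123 cit cells passed the gates of more than 1 lineage.

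UMIs were summed per class and divided by the total UMIs of the class (CPM). Ratios had exact conditional binomial intervals, shares Clopper-Pearson intervals, and differences of shares Newcombe intervals, all at 95% and covering counting error only. Genes with at least 5 CPM (all cells, resting cDC2) or 20 CPM (other classes) in either library were compared. A gene could thus pass through only the library where it was higher, members and all other genes alike. How many members passed in that way was not counted. Depth was 51020804 UMIs in WT and 72652201 in cit. Members with at least 50 CPM over all cells, and the 5 highest and 5 lowest ratios among members with at least 5 CPM, were to be named, and others are named as chosen after their values were seen (such as the IFIT genes). Of the lists, counts are given over all cells and in resting cDC2, and for nucleic acid sensing also in cDC1, mature DC and pDC. Ligands with a UMI, receptors and most genes past 1.5-fold with at least 20 CPM over all cells or in resting cDC2 were named. Beside these, others of the PYHIN family were named. Some items are not reported here. Python 3.11.15, numpy 2.4.6, scipy 1.17.1 and scanpy 1.11.5 (Scrublet, for an alternative) were used, and the ratio and score steps were tested on simulated data. The alternatives covered scaling, weighting of cells, class assignment, doublets, mitochondrial and ribosomal limits, score thresholds and thinning depth.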

Additional observations from a re-analysis of the deposited data

Results flagged for a closer look

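With 1 library per genotype, a sample that stands apart from its group could not be looked for. The ratio of cit to WT pointed in opposite directions in different cell classes, with counting intervals that left out 0 on each side, for the list and for 8 members, and these differences between classes were not tested. The share of all genes with such opposite ratios was not counted. The summed list had a log2 ratio of -0.10 in pDC and 0.75 in proliferating cells. Without Bst2 the list was at 0.06 in pDC, with an interval of -0.03 to 0.15 that held 0. Irf7 was at -0.46 in pDC and 1.29 in mature DC, and Irgm1 at -1.22 in pDC and 0.58 in cDC1. Oasl1 was at -1.21 in mature DC and 3.28 in cDC1. Bst2 was at -0.33 in Ccr2+ cDC2 and 0.97 in monocyte-like cells. In cDC1, 4 members were lower in cit that were higher elsewhere. These were Ifih1 (-0.57, and 0.88 in proliferating cells), Samd9l (-0.68, and 0.48 in mature DC), Trim30a (-0.29, and 0.72 in macrophages) and Slfn5 (-0.51, and 0.65 in proliferating cells).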

How the results depend on the processing

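No paired analysis was possible because there was 1 library per genotype, and for the same reason no library could be left out. Of 115 recomputed values for the list level, the counts of members past 1.5-fold and the high-scoring shares, 84 stayed within the counting interval of the value reported (for counts, within 1.5 times), 30 moved further, and 1 whose interval had left out 0 changed sign. Counting those whose interval held 0, 3 changed sign, all in pDC. Over all cells, class assignment by z-score could change no value, and those runs are counted among the values that stayed. The count of members past 1.5-fold stayed between 13 and 18 over all cells and between 12 and 19 in resting cDC2, with 0 lower throughout, and the low counts belong to the 20 CPM minimum, under which 26 members were tested. The log2 ratio of the list changed as follows. Median-ratio scaling gave 0.55 over all cells, 0.55 in resting cDC2 and 0.29 in cDC1. Weighting every cell equally gave 0.52 in resting cDC2, 0.31 in cDC1 and 0.37 in mature DC. Without cells under 10% ribosomal UMIs it was 0.47 over all cells, 0.44 in resting cDC2 and 0.57 in mature DC. Leaving out Bst2 gave 0.59 over all cells, 0.15 in cDC1 and, with a change of sign, 0.0602 in pDC, and leaving out Ifi27l2a gave 0.47, 0.45 in resting cDC2 and 0.41 in mature DC. Assignment by z-score gave 0.37 in cDC1 and -0.19 in pDC. In mature DC the ratio was 0.39 without likely doublets and 0.42 without cells that held cDC1 genes, the latter chosen after the data were seen, as was leaving out shared barcodes, which moved no value beyond its interval. The difference in high-scoring share depends on the threshold by construction. With thresholds reached by at most 1% of WT cells it was 0.875 points over all cells and 1.30 in resting cDC2, and by at most 10%, 8.35, 9.04 and, in mature DC, 2.86. Counting different members gave 5.04 over all cells and, with the opposite sign, 3.83 in pDC, where leaving out Bst2 gave 1.64 and the value reported was -11.7 with an interval that held 0. Without Bst2 it was 5.32 over all cells and 5.95 in resting cDC2, and after thinning to 3000 UMIs 6.79, 7.07 and, in mature DC, 2.19. The causes of these changes were not tested. Of 408 recomputed ratios of single members 372 stayed within their interval, 34 moved further and 2 whose interval had left out 0 changed sign, Oasl1 (0.63) and Gbp2 (0.30) over all cells without cells under 10% ribosomal UMIs. With ratios whose interval held 0, 5 changed sign. Here too the runs with z-score assignment over all cells could change no ratio and are counted among those that stayed.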
